A study of Mus musculus with 9 samples.

Results

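The genes described here are 10 that mark fat cells or the lipid droplets that cells use to store fat: Cidea, Cidec, Scd1, Car3, Fabp4, Adipoq, Plin1, Plin5, Ucp1 and Retn. All probe sets of the Affymetrix mouse array assigned to one of these symbols and to no other gene were taken. This gave 17 probe sets for 9 of the 10 genes, out of 34945 probe sets for 18193 genes. Car3 and Fabp4 have 4 probe sets each, Scd1 and Plin5 have 2 each, and the other 5 genes have 1 each. Plin1 has no such probe set and is not analysed here.

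Hearts of mice aged 2 months on a C57BL/6 background were compared in 3 groups of 3 samples, 1 array each, named as biological replicates. Mutant right atria came from Myh6-cre; COUP-TFIIflox/flox mice, in which Cre driven by the cardiomyocyte promoter Myh6 recombines both floxed alleles of the nuclear receptor COUP-TFII (gene Nr2f2). Control right atria and control ventricles came from COUP-TFIIflox/flox mice; the labels do not say whether each sample is 1 animal or a pool. Thus all 9 arrays carry the floxed alleles and only the mutants carry Cre, whose own effect cannot be told apart from the deletion. RNA came from tissue and not from sorted cells, and in such bulk samples fewer cells of a type and less RNA per cell cannot be told apart. The question the design puts is which genes give the atrium its identity under COUP-TFII.

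White fat cells store triglyceride in one large droplet coated by perilipin 1 and secrete adiponectin (Adipoq) and resistin (Retn). Brown fat cells burn it, with uncoupling protein 1 (Ucp1) in their mitochondria. Several genes of this kind are also used outside fat: perilipin 5 (Plin5) coats droplets at the mitochondria of oxidative muscle and heart, and the fatty acid carrier Fabp4 is made by capillary endothelium as well as by adipocytes. The heart wears fat of its own on the atria and along the great vessels, so that a dissected atrium can carry adipocytes.

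Values are log2 of RMA intensity. Differences are log2 ratios ± SE from a limma fit of all 34945 probe sets on the 9 arrays, called at a Benjamini-Hochberg adjusted p under 0.05, and mean levels are given ± SD with n = 3 arrays. As a view of what a silent gene reads, 44 probe sets of olfactory receptors had a median level of 4.47, and 95% of them lay below 5.77. The array medians were 80.9 to 83.4 in intensity and arrays of a group correlated at 0.994 to 0.996 across probe sets. The 3′ minus 5′ difference of Gapdh, a sign of RNA quality, lay at 0.345 to 0.364 (control atria), 0.214 to 0.304 (mutant atria) and 0.153 to 0.227 (ventricles), and its part in the results was not tested. Muscle markers matched the labels of the control atria and the ventricles. In the mutant atria ventricular markers lay near the level of the ventricles, and the cause was not tested. The summed level of 8 atrial muscle genes lay at 17.11 to 17.14 (control atria), 16.16 to 16.62 (mutant atria) and 13.05 to 13.50 (ventricles). The summed level of 7 ventricular muscle genes lay at 12.43 to 12.83 (control atria), 15.75 to 15.94 (mutant atria) and 16.01 to 16.07 (ventricles). Of these 7 genes 5 rose and 1 fell in mutant against control atrium, where 6.92% of all genes rose and 8.99% fell. The targeted gene Nr2f2 in its brightest probe set read 7.49 ± 0.19 in control and 6.75 ± 0.12 in mutant atria, which is -0.74 ± 0.15 for the mutants (adjusted p = 0.0113). Its other probe sets disagreed in size: -1.29, -1.20 and -0.77 were called, and -0.48 and 0.14 were not (adjusted p = 0.108 and 0.46).

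The promoters of a gene that fell and of a gene that rose are shown because Adipoq is the reference for the fat signal below and Plin5 the largest rise, and because COUP-TFII and the fat cell regulator PPAR gamma both bind the letters AGGTCA and their repeats. Each window is the 250 bases before the start site in RefSeq's GRCm38.p6, 5′ to 3′ on the gene's own strand, and capitals mark AGGTCA. The Adipoq window is chr16:23146286-23146535 (plus strand) and the Plin5 window, upstream of 1 of its 2 listed starts, is chr17:56117549-56117798 (minus strand).

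Adipoq: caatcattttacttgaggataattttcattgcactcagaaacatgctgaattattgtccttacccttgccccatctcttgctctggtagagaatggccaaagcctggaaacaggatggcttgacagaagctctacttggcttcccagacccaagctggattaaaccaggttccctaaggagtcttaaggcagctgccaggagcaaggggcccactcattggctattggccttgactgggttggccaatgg

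Plin5: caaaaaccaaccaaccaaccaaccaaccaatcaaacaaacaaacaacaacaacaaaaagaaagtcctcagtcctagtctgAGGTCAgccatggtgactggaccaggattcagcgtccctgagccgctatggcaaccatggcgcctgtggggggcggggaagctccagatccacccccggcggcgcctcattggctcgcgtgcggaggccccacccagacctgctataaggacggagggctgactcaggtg

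Windows were listed for 6 of the 10 genes (8 windows). On either strand, AGGTCA occurred in 1 of the 2 Plin5 windows, beginning at -170 from the start, and in the Ucp1 window at -14. It was in none of the Adipoq, Cidec, Plin1 or Retn windows, and 14% of 32851 mouse promoter windows of this length hold it. The direct repeat of these letters with 1 base between (DR1) was in none of the 8 windows and in 0.0335% of all. The letters TTNNGCAA, a form bound by C/EBP factors, matched in the Plin1 window at -187 and -58 and in a Cidec window at -198, against 9.56% of all windows, and TATAAA was in none of the 8 (12.4% of all). A match is a description of letters and not of a bound site.

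In mutant against control right atrium the 9 genes did not move as a block. By their brightest probe sets, Plin5, Cidea, Fabp4 and Ucp1 rose, Car3, Adipoq and Scd1 fell, and Cidec and Retn did not pass. Of the 17 probe sets 13 were called, 8 higher and 5 lower, where 13.9% of all probe sets were called (5.86% higher and 8.05% lower). The median over the 17 was -0.23, beside 0.02 over all probe sets. Between ventricle and control atrium, which shares the same control atria, 13 of the 17 were also called, 8 higher and 5 lower, but there 47.2% of all probe sets were called (25.7% higher and 21.5% lower). Between mutant atrium and ventricle 8 were called, 2 higher and 6 lower, beside 27.5% of all (13.4% higher and 14.1% lower). By gene, 7 of 9 were called in mutant against control atrium, beside 15.9% of all genes, and 7 of 9 in ventricle against control atrium, beside 51.3%. The count was 3 of 9 between mutant atrium and ventricle, where 31% of all genes were called (15.4% higher and 15.6% lower).

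**Figure D1:**
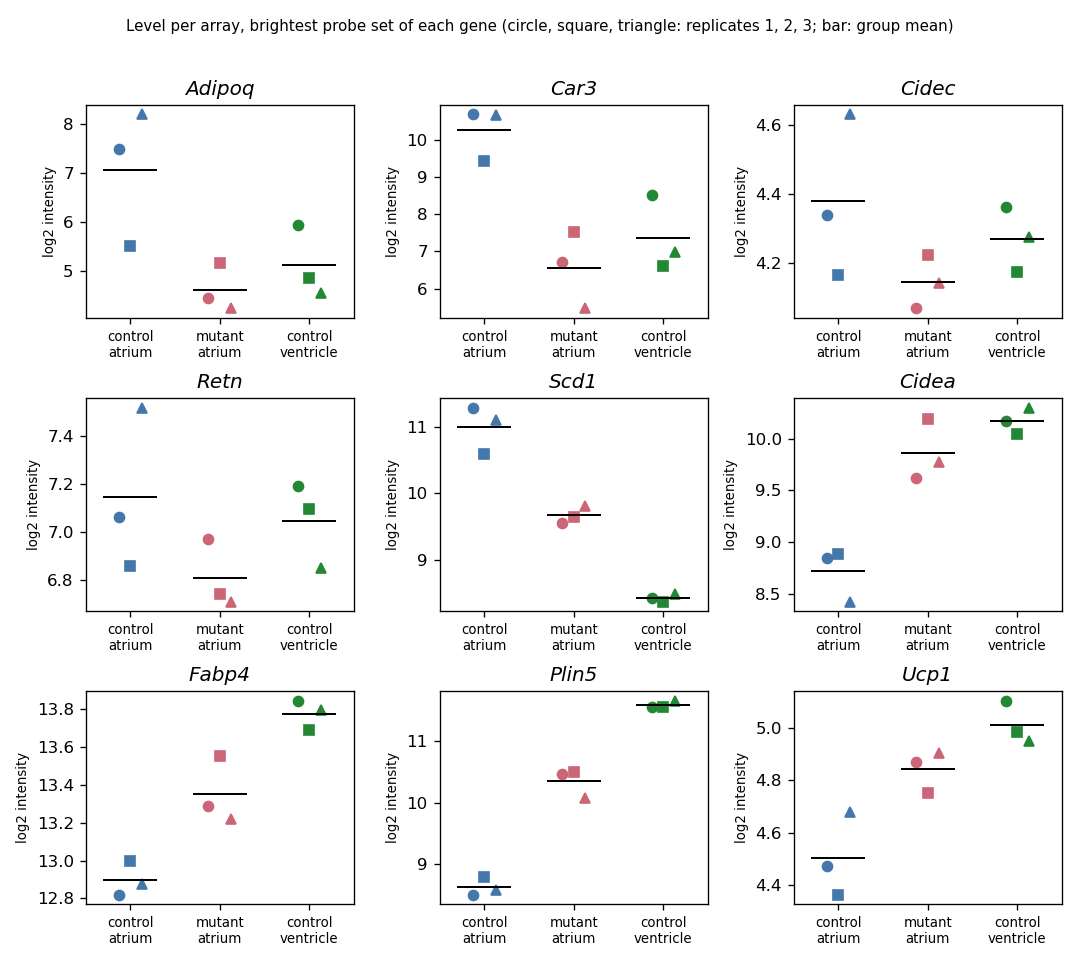
Log2 intensity (y axis) of the brightest probe set of each gene on each of the 9 arrays, by group, with replicates 1, 2 and 3 as circle, square and triangle and the group mean as a bar; each panel has its own scale. Adipoq and Car3 have their highest group mean in the control atria, though control atrium replicate 2 lies below ventricle replicate 1 for Adipoq. Plin5, Fabp4, Scd1 and Cidea step from control atrium through mutant atrium to ventricle, with mutant and ventricle arrays overlapping for Cidea.

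Adiponectin, the hormone that adipocytes secrete in quantity and the transcript most restricted to fat among the 9, read 7.49, 5.52 and 8.19 in the control atria. It read 4.45, 5.17 and 4.23 in the mutant atria and 5.94, 4.86 and 4.55 in the ventricles. Control atrium replicates 1 and 3 stood high, replicate 2 lay below ventricle replicate 1, and all mutant arrays lay below all control atria, within the range of the olfactory receptors. The difference of mutant from control atrium was -2.45 ± 0.61 (5.45-fold lower, adjusted p = 0.026), with a mutant level at which folds are compressed. The call was lost on leaving out any one of 4 arrays, replicate 1 or 3 of the mutants (adjusted p = 0.0639 and 0.0844) or replicate 1 or 3 of the control atria (0.0933 and 0.0657). Without both of those control atria, which leaves 1 array in the control arm and takes the spread from the other groups, it was -0.90 ± 0.53 (adjusted p = 0.407). Ventricle against control atrium gave -1.95 ± 0.61 (adjusted p = 0.0245), which did not pass without replicate 1 or 3 of the control atria (0.0837 and 0.0796) or replicate 2 or 3 of the ventricles (0.069 and 0.0822). Mutant atrium minus ventricle was -0.50 ± 0.61 (adjusted p = 0.582).

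Carbonic anhydrase 3, an enzyme abundant in fat, liver and slow skeletal muscle, fell furthest. Its brightest probe set read 10.69, 9.45 and 10.69 in control atria, 6.72, 7.51 and 5.47 in mutant atria and 8.52, 6.60 and 6.98 in ventricles. The control atria did not overlap with either other group, and the same arrays as for Adipoq were highest in the mutants (replicate 2) and the ventricles (replicate 1). The mutant atria were 13.1-fold lower (-3.71 ± 0.60, adjusted p = 0.00333) and the ventricles 7.51-fold lower (-2.91 ± 0.60, adjusted p = 0.00323). The second probe set gave -1.75 ± 0.35 (3.35-fold, adjusted p = 0.0103). Both passed with any single array left out, and neither passed without control atrium replicates 1 and 3 together (-2.88 and -0.86, adjusted p = 0.132 and 0.202), again with 1 control array left. The remaining 2 probe sets of Car3 lay at 3.68 to 5.08 on all arrays, near the level of silent genes, and gave -0.70 ± 0.25 and -0.36 ± 0.16 (adjusted p = 0.099 and 0.167). Both passed as lower without control atrium replicate 2 (-1.03, adjusted p = 0.00925, and -0.55, adjusted p = 0.0293).

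Cidec encodes a protein that fuses droplets in white fat. It lay between 4.07 and 4.63 on all 9 arrays, with a mean of 4.38 ± 0.24 in control atria, 4.14 ± 0.08 in mutant atria and 4.27 ± 0.09 in ventricles. These are readings of a silent gene, and neither comparison with control atrium passed (-0.23 ± 0.11, adjusted p = 0.2, for the mutants). Resistin, a secreted factor of mouse white fat, read 7.07, 6.86 and 7.52 in control atria, 6.97, 6.74 and 6.71 in mutant atria and 7.19, 7.10 and 6.85 in ventricles. The 3 groups overlapped and the mutant difference of -0.34 ± 0.16 did not pass (adjusted p = 0.192).

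To separate what the genes share from what each does alone, the deviation of each array from its group mean was set against that of Adipoq. Pearson's r is a description over 9 arrays, whose probe sets share RNA sample, hybridisation and scaling. It was 0.79 and 0.98 for the 2 brighter Car3 probe sets and 0.68 and 0.89 for the 2 dimmer, 0.87 for Cidec, 0.77 for Retn and 0.69 for Ucp1. It was 0.63 and 0.60 for the Scd1 probe sets, -0.25 for Cidea, -0.22 to 0.05 for the 4 of Fabp4, and -0.28 and -0.25 for those of Plin5. Over 1707 genes with a mean level of at least 6 in 1 group and a within-group SD of at least 0.2, the middle was -0.04, with 5% of genes above 0.65. Cidec, Ucp1, the 2 dimmer Car3 probe sets and the dimmer Scd1 probe set did not reach that level. Plin5 and most of the Fabp4 probe sets did not reach that SD. For all of these the distribution is not a matched reference. Leaving out 1 array at a time gave 0.95 to 1.00 for the second Car3 probe set, 0.74 to 0.85 for the brightest, 0.71 to 0.92 for Cidec and 0.58 to 0.85 for Retn. For the brighter Scd1 probe set the value ranged from -0.43 to 0.74, and for 1 of the dim Car3 probe sets from -0.01 to 0.88, so those relations rest on single arrays. Low values of r moved with single arrays too. For the 2 brighter Fabp4 probe sets they ranged up to 0.70 and 0.76 with 1 array left out, so those low values rest on single arrays. For the other 2 they ranged up to 0.31 and 0.05. Those of Plin5 ranged from -0.80 to 0.29 and from -0.72 to 0.20, and Cidea from -0.64 to 0.20. A unit of log2 in Adipoq went with 0.78 and 0.56 in the brighter Car3 probe sets, 0.19 in Retn, 0.14 in Cidec and 0.08 in Ucp1.

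**Figure D2:**
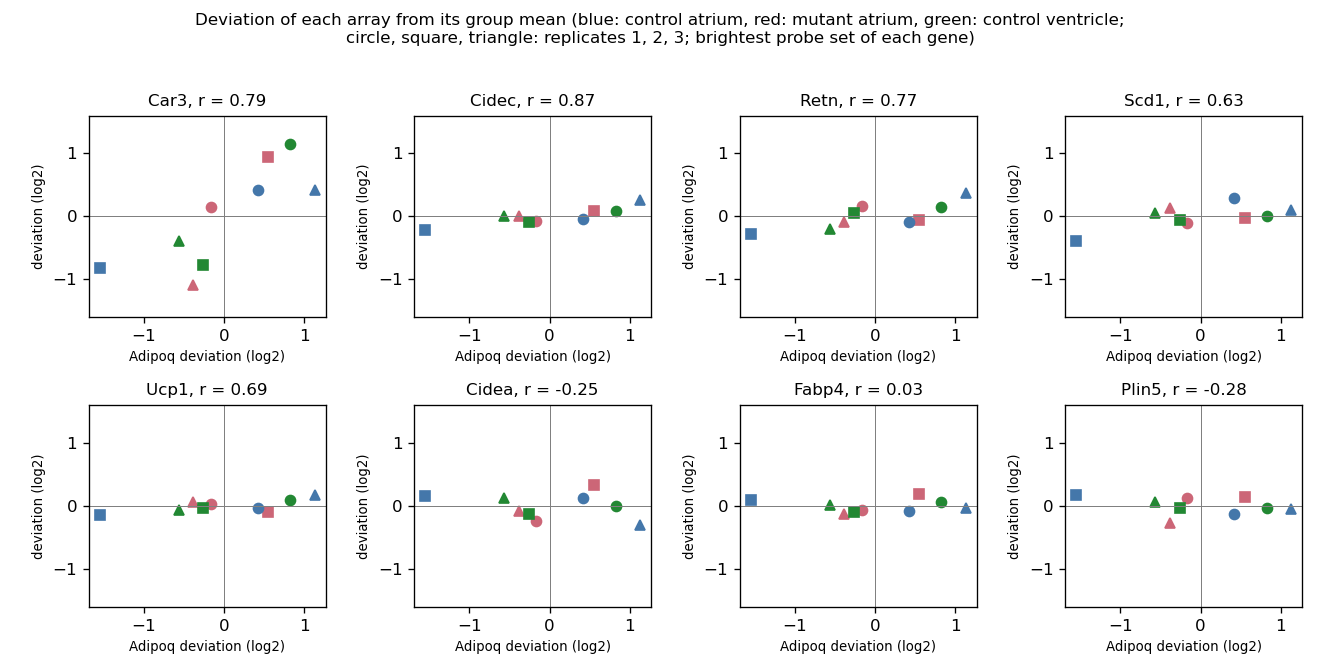
Deviation of each array from its group mean in log2 for 8 genes (y axis) against the same for Adipoq (x axis), with arrays coloured by group and marked by replicate. Car3, Cidec and Retn deviate with Adipoq (r = 0.79, 0.87 and 0.77), and Cidea, Fabp4 and Plin5 have r = -0.25, 0.03 and -0.28, values that move with 1 array left out (Fabp4 from -0.35 to 0.70).

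The 8 genes outside the set whose deviations were most like those of Adipoq were Rac2 (r = 0.94), B2m, H2-K1, Ifi27l2a, Igtp, Irgm2, Adat2 and Ifi47 (r = 0.89), each over 9 arrays. None of them is a fat cell gene: Rac2 is a GTPase of blood cells, B2m and H2-K1 make up class I antigen presentation, and Igtp, Irgm2 and Ifi47 are interferon-induced GTPases. Of the white fat markers outside the set, leptin read 4.48 ± 0.07 in control atria, 4.54 ± 0.07 in mutant atria and 4.69 ± 0.12 in ventricles, as a silent gene does. Of 25 measured genes in a white adipocyte list without the 9, 6 rose and 3 fell in mutant against control atrium, with a median of 0.06, where 15.9% of genes were called (6.92% higher, 8.99% lower). In ventricle against control atrium 17 were higher and 4 lower, where 51.3% of genes were called (28.2% higher and 23.1% lower). Among those with the smallest p in the mutants, Gpd1, which makes glycerol phosphate, rose by 1.00 ± 0.11, and Pparg, the master regulator of fat cell formation, by 0.63 ± 0.10. Rarres2, which encodes the adipokine chemerin, fell by 0.86 ± 0.10 and was lower in ventricle too (-2.07 ± 0.10), as Adipoq was. The list's largest fall was that of Orm1, an acute-phase protein gene of liver and fat named here after its values were seen. It read 8.39, 7.47 and 4.91 in control atria, against 4.31 to 4.40 (mutant atria) and 4.34 to 4.44 (ventricles), and fell by 2.58 ± 0.67 in the mutants (adjusted p = 0.0309). That call was lost without any one of the mutants or replicate 1 or 2 of the control atria (adjusted p of 0.0679 to 0.104). Its highest control atrium was replicate 1 and its lowest replicate 3. Dgat2, the last enzyme of triglyceride synthesis, fell by 0.48 ± 0.10 in the mutants and was higher in ventricle than in control atrium (1.07 ± 0.10).

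Markers of liver and of the heart's surface lining were mostly lower in mutant atria and ventricles than in control atria, as Adipoq and Car3 were. Of 22 hepatocyte genes 19 fell in the mutant atria and none rose, where 8.99% of all genes fell and 6.92% rose. The summed level of the 22 read 14.41, 13.67 and 12.10 in control atria, against 10.21 to 10.38 (mutant atria) and 10.25 to 10.38 (ventricles). Serpina1c, a liver protease inhibitor, was 10.89 ± 1.38 in control and 4.90 ± 0.21 in mutant atria, and Alb was at 4.95 ± 0.27 in the mutants. Within the control atria, hepatocyte genes were highest in control atrium replicate 1 and lowest in replicate 3, and Adipoq was highest in replicate 3 and lowest in replicate 2. Over the same 9 arrays, deviations were set against those of the hepatocyte, mesothelial, capillary and macrophage lists, in that order. The brightest Car3 probe set correlated at -0.06, 0.66, 0.28 and 0.67. The second Car3 probe set gave -0.32, 0.71, -0.04 and 0.38, and Adipoq gave -0.36, 0.64, 0.10 and 0.48. All 13 mesothelial markers fell, with sums of 13.67 to 13.94 (control atria), 12.40 to 12.76 (mutant atria) and 10.62 to 10.95 (ventricles). All 13 were also higher in mutant atrium than in ventricle (median 1.47), where 15.4% of all genes were higher. Adipoq and the brightest Car3 probe set were not called there (-0.50 ± 0.61 and -0.80 ± 0.60). Against control atria Upk3b, a marker of the surface lining, fell by 1.75 ± 0.17 in the mutants and Krt19 by 1.64 ± 0.15. With a covariate of the hepatocyte list the differences of Adipoq and Car3 were -3.81 ± 1.36 and -3.92 ± 1.43 and did not pass (adjusted p = 0.347 and 0.358); the median SE over all probe sets was then 0.197 in place of 0.0912. That fit does not settle the part of liver RNA in these falls, and the part of lining tissue was not tested.

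**Figure D3:**
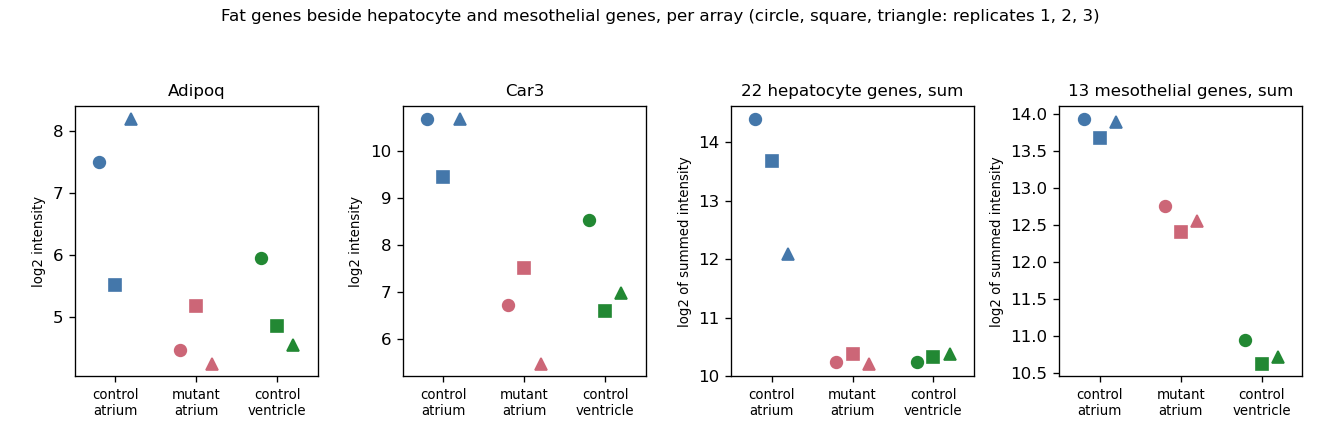
Log2 level per array of Adipoq and Car3 and log2 of the summed intensity of 22 hepatocyte and 13 mesothelial genes (y axes), by group and replicate. All 4 have their highest group mean in the control atria, though for Adipoq control atrium replicate 2 (5.52) lies below ventricle replicate 1 (5.94). Among the control atria, replicate 3 has the most Adipoq (8.19) and the least hepatocyte signal (12.10).

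Skeletal muscle, which also makes Car3, was followed by 15 genes. Of these 2 rose and 3 fell in the mutant atria, where 6.92% of all genes rose and 8.99% fell. The sums of the 15 lay at 10.73 to 10.84 (control atria), 11.55 to 12.01 (mutant atria) and 10.87 to 11.38 (ventricles). Tnnt1, the slow skeletal troponin T, rose by 2.60 ± 0.16 while Actn3, an actinin of fast fibres, fell by 1.46 ± 0.11 and the fast light chain gene Mylpf rose by 0.46 ± 0.10. The median difference over the list was 0.01, and the part of skeletal muscle in the Car3 result was not tested.

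Plin5, Cidea and Fabp4 rose from levels well above those of silent genes. Perilipin 5, which shields the droplets of oxidative muscle from lipase and ties them to mitochondria, read 8.51, 8.80 and 8.58 in control atria by its brighter probe set. It read 10.47, 10.49 and 10.07 in mutant atria and 11.55, 11.55 and 11.65 in ventricles. The 3 groups were apart with no overlap, the mutant atria between the other 2. The mutant atria were 3.28-fold above control atria (1.71 ± 0.12, adjusted p = 2.37e-05) and 2.36-fold below ventricles (-1.24 ± 0.12, adjusted p = 6.06e-05). Its other probe set gave 1.90 ± 0.14 against control atria (3.72-fold, adjusted p = 2.71e-05) and 3.26 ± 0.14 for ventricle against control atrium (9.57-fold, adjusted p = 1.75e-07). The rise in the mutants was called under each alternative that was run, 22 for the brighter and 21 for the other probe set, including a covariate of Adipoq and the loss of control atrium replicates 1 and 3 together.

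Cidea, first known from brown fat, where it promotes the growth of droplets, was far above the silent level in all heart samples. It read 8.85, 8.89 and 8.42 in control atria, 9.62, 10.19 and 9.78 in mutant atria and 10.17, 10.05 and 10.30 in ventricles. The mutant atria stood clear of the control atria and overlapped with the ventricles. The rise was 2.21-fold (1.14 ± 0.16, adjusted p = 0.00164), and ventricles were 2.74-fold above control atria (1.46 ± 0.16, adjusted p = 7.32e-05). Mutant atrium and ventricle differed by -0.31 ± 0.16 (adjusted p = 0.182). With control atrium replicate 2 as the only control array the rise was 0.98 ± 0.21 (adjusted p = 0.0546).

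Fabp4, which carries fatty acids through the cytoplasm of endothelium and fat cells, was among the brightest transcripts. Its brightest probe set read 12.82, 13.00 and 12.87 in control atria, 13.29, 13.55 and 13.22 in mutant atria and 13.84, 13.69 and 13.80 in ventricles, 3 separate ranges. Mutant atria were higher by 0.46 ± 0.10 (1.37-fold, adjusted p = 0.0124) and ventricles by 0.88 ± 0.10 (adjusted p = 6.44e-05). The 4 probe sets rose in the mutants by 1.37-fold to 1.61-fold, all passing, and each was lower in mutant atrium than in ventricle by -0.42 to -0.83. The probe set with the lowest control level lost its call without replicate 2 or 3 of the mutants (adjusted p = 0.113 and 0.11) or any one of the control atria (0.0636 to 0.0906), and with the replicate number as a block (0.0508). With 1 control array left (replicate 2) the rises were 0.36 to 0.58, and none of the 4 passed.

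The deviations of the 4 Fabp4 probe sets correlated at 0.70 to 0.86 with the mean deviation of 17 capillary genes, and at 0.53 to 0.75 with that of 13 macrophage genes. Cidea gave 0.73 and 0.59 with these lists, and the dimmer Scd1 probe set 0.51 and 0.54. The remaining probe sets of the set gave -0.34 to 0.42 and -0.03 to 0.67. These values were not computed for genes outside the set or with arrays left out. In the mutant atria 3 capillary genes rose and 2 fell, with a median of 0.01, where 6.92% of all genes rose and 8.99% fell. The capillary sums were 15.49 to 15.67 in mutant atria against 15.41 to 15.48 in control atria. Gpihbp1, which holds lipoprotein lipase on the capillary wall, rose by 1.16 ± 0.16 (2.23-fold, adjusted p = 0.00164) and Rgcc by 1.18 ± 0.17. The angiopoietin receptor Tek fell by 0.61 ± 0.13 and the VEGF receptor Flt1 by 0.39 ± 0.08. Pecam1 and Cdh5 did not pass, at -0.35 ± 0.15 (adjusted p = 0.166) and 0.14 ± 0.08 (adjusted p = 0.251). Pecam1 passed as lower without mutant replicate 1 (-0.56, adjusted p = 0.00338) and with array weights (-0.43, adjusted p = 0.0469). Of the 13 macrophage genes 7 rose and none fell, beside the same shares over all genes. Cd68 rose by 0.79 ± 0.13 and the receptor Csf1r by 0.38 ± 0.09. The macrophage sums were 14.20 to 14.70 in mutant and 13.95 to 14.02 in control atria. In ventricles the macrophage sums were 13.10 to 13.68. Macrophages can make Fabp4, and their part in its rise was not tested, nor was that of capillaries.

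**Figure D4:**
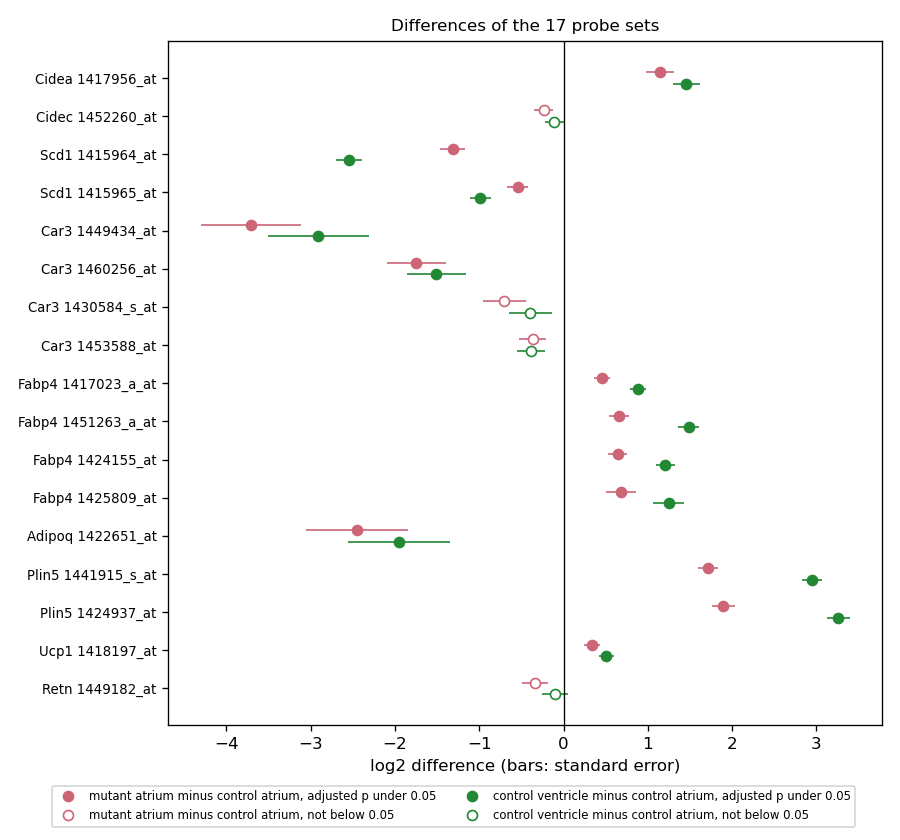
Log2 difference of mutant atrium (red) and control ventricle (green) from control atrium (x axis) for the 17 probe sets, with the SE as a bar; filled points have an adjusted p under 0.05. Both differences share the 3 control atria; Plin5, Fabp4, Cidea and Ucp1 lie to the right and Car3, Adipoq and Scd1 to the left.

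Ucp1, the proton channel that makes brown fat warm, was called but stayed at the level of a silent gene. It read 4.47, 4.36 and 4.68 in control atria, 4.87, 4.75 and 4.90 in mutant atria and 5.10, 4.98 and 4.95 in ventricles. The mutants differed by 0.34 ± 0.09 (adjusted p = 0.0357), a call that remained in only 4 of 9 fits with 1 array left out (adjusted p of 0.0148 to 0.119). It was lost without mutant replicate 1, 2 or 3 and without control atrium replicate 1 or 2. Of the other genes taken as defining markers of brown fat, Cidea rose as given above, and Otop1 and Elovl3 did not pass, at 3.39 to 3.67 and 5.70 to 5.97 over the 9 arrays. Of 25 brown adipocyte genes outside the set 3 rose and 1 fell in the mutants (median 0.10), and 8 were higher and 6 lower in ventricles, near the shares over all genes (15.9% and 51.3% called). Prdm16, a transcriptional regulator of brown fat identity, rose by 1.54 ± 0.22 and was higher still in ventricle than in control atrium (2.57 ± 0.22). Also higher in the mutants were the respiratory subunit Cox8b by 0.39 ± 0.06 and the carnitine carrier Slc25a20 by 0.52 ± 0.12. The 1 that fell was Kng1, a kininogen gene made chiefly by liver, at -2.16 ± 0.48.

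Scd1, which puts the first double bond into saturated fatty acids, fell in steps in the opposite order. Its brighter probe set read 11.28, 10.59 and 11.10 in control atria, 9.57, 9.64 and 9.81 in mutant atria and 8.44, 8.39 and 8.50 in the ventricles. The 3 groups did not overlap. The mutant atria were 2.49-fold below control atria (-1.32 ± 0.15, adjusted p = 0.000527) and 2.35-fold above ventricles (1.23 ± 0.15, adjusted p = 0.00026). The dimmer probe set gave -0.55 ± 0.12 (adjusted p = 0.0182), a call lost without control atrium replicate 1 (adjusted p = 0.068) or 3 (0.0533). With 1 control array left (replicate 2) the brighter probe set gave -0.92 and passed, and with a covariate of Adipoq it gave -0.96 and did not (adjusted p = 0.0556).

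Of 19 other genes of fatty acid synthesis, 6 fell and 2 rose in the mutant atria, where 8.99% of all genes were lower and 6.92% higher. Their median was -0.02 (0.03 over all genes). In ventricles 8 were lower and 7 higher, where 23.1% of all genes were lower and 28.2% higher. Scd2, the desaturase beside Scd1 in the genome, fell by 1.17 ± 0.09 (2.25-fold, adjusted p = 5.27e-05) and was lower still in ventricle than in control atrium (-2.63 ± 0.09). Fasn, the fatty acid synthase, fell by 0.62 ± 0.11 and the elongase Elovl5 by 0.46 ± 0.08. Mid1ip1, which activates acetyl-CoA carboxylase, rose by 0.75 ± 0.14. Scd1 and Scd2 are close copies, and whether their probe sets pick up each other's RNA was not tested.

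Of 28 droplet and lipolysis genes outside the set, 2 rose and 3 fell in the mutants with a median of -0.00, and in ventricles 12 were higher and 3 lower. The total called in each comparison is near the share over all genes (15.9% and 51.3%). By direction, 28.2% of all genes were higher and 23.1% lower in ventricle against control atrium, a more even split than in this list. Cideb, the liver and gut relative of Cidea and Cidec, rose by 0.69 ± 0.08 (adjusted p = 0.000674), and Lpin1, a phosphatidate phosphatase, fell by 0.94 ± 0.14. Bscl2, the seipin of droplet assembly, fell by 0.33 ± 0.08. Among the called genes, the 2 with the largest differences did not pass in ventricle against control atrium: Cideb differed there by -0.14 ± 0.08 (adjusted p = 0.174) and Lpin1 by 0.19 ± 0.14 (adjusted p = 0.283).

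**Figure D5:**
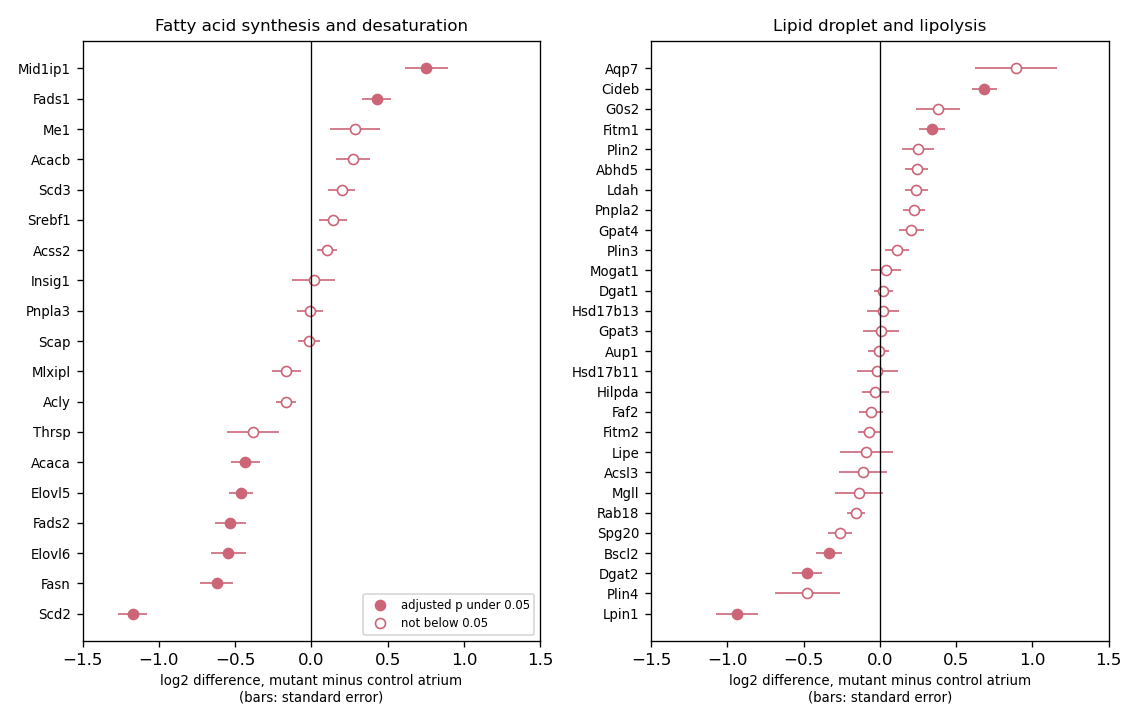
Log2 difference of mutant from control right atrium (x axis, SE as a bar) for 19 genes of fatty acid synthesis and 28 of the lipid droplet and lipolysis; filled points have an adjusted p under 0.05. In the first list 6 of 8 called genes lie to the left, led by Scd2, and in the second 2 called genes lie to the right and 3 to the left.

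Relatives of the set did not move as a block. Of 27 measured paralogues 6 rose and 3 fell in the mutant atria, with a median of 0.11, where 15.9% of genes were called. Car2, the common cytosolic carbonic anhydrase, fell by 0.66 ± 0.07 and Car7 rose by 0.55 ± 0.08, both in the company of a Car3 that fell 13.1-fold. Of the 27 paralogues Fabp1, also taken as a hepatocyte marker, fell furthest (-3.78 ± 0.80, adjusted p = 0.0128). It read 10.23, 8.20 and 5.92 in control atrium replicates 1, 2 and 3, the same order as the hepatocyte genes. Among 28 regulators of fat formation, Nr2f2 itself included, 7 rose and 4 fell, where 6.92% of all genes rose and 8.99% fell. Cebpb rose by 0.95 ± 0.14 and Cebpd by 0.62 ± 0.10, both early factors of the program that ends in Pparg. Receptors and partners of adiponectin, resistin and leptin did not pass in any of 6 cases, where 15.9% of all genes were called. Adipor1 was at -0.11 ± 0.06 (adjusted p = 0.265) and Adipor2 at -0.22 ± 0.08 (adjusted p = 0.102).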

How the data were processed

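RNA of 9 mouse heart samples (3 mutant right atria, 3 control right atria, 3 control ventricles) was hybridised to Affymetrix 3′ arrays, 1 array per sample; the labels call the replicates biological. The authors deposited 1 intensity for each probe set, computed with RMA per the submitters' processing notes; software, version and genome build are not given in the sources used here. The range of the values is that of a linear scale, and log2 was taken. Of 45101 probe sets, 64 controls, 9160 without a gene and 932 with several were left out, leaving 34945; symbols come from GEO's platform annotation, and 34741 entries matched RefSeq by gene ID. RMA compresses differences near background and near saturation. One limma 3.58.1 fit (R 4.3.3; lmFit, eBayes; a mean per group; 6 residual and 3.83 prior degrees of freedom) covered all probe sets and 3 comparisons, 2-sided. For gene lists, a gene is its probe set with the highest mean. Named beside the set were genes from each list with the smallest p in mutant against control atrium and defining cell markers; genes like Adipoq needed a level of at least 6 in 1 group and a within-group SD of at least 0.2. The procedure was tested on simulated data. Members, lists and rules were chosen with earlier results of these data known. Alternatives were a replicate block, 1 probe set per gene, variance trend, a filter on the dimmest 40%, quantile and median scaling, 2-group fits, array weights, adipocyte and hepatocyte covariates, log2(value + 32), and leaving out each array; an Adipoq covariate and leaving out control atrium replicates 1 and 3 were chosen after seeing the data. Depth does not apply to arrays; their number limits the precision. Promoter windows are RefSeq's, GRCm38.p6. Figures used matplotlib 3.10.9.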

Additional observations from a re-analysis of the deposited data

How the results depend on the processing

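The count of called probe sets in mutant against control atrium (13 of 17) ranged from 9 to 13 with 1 array left out, that of ventricle against control atrium (13) from 12 to 15, and that of mutant atrium against ventricle (8) from 6 to 8. With 1 probe set per gene, which tests 9 in place of 17, the counts were 7, 7 and 3. With control atrium replicates 1 and 3 left out together, which leaves 1 control array and takes its spread from the other groups, 3 remained in mutant against control atrium: both probe sets of Plin5 and the brighter one of Scd1. A covariate of Adipoq left 2 of 16 there, and a hepatocyte covariate left 2 of 17 there and 7 in ventricle against control atrium. Calls over all 34945 probe sets fell too. In mutant against control atrium they went from 4861 to 893 with the Adipoq covariate and to 191 with the hepatocyte covariate. In ventricle against control atrium they went from 16492 to 2513 with the hepatocyte covariate. A covariate of the white adipocyte list left 2 in ventricle against control atrium and 0 in mutant atrium against ventricle. Over all probe sets it left 511 of 16492 calls and 28 of 9612 in these comparisons. The white adipocyte covariate lay at -0.13 to -0.04 in the atria and 0.15 to 0.19 in the ventricles, so it follows the chamber. Under it Adipoq in ventricle against control atrium turned to 0.59, and 3 of the Fabp4 probe sets in mutant atrium against ventricle to 0.066, 0.18 and 0.57, none called. With the hepatocyte covariate Kng1 in mutant against control atrium turned to 0.86 and was not called (adjusted p = 0.139). Orm1 turned to 1.63 there and to 1.69 in ventricle against control atrium, both called as higher (adjusted p = 0.00651 and 0.0014). Over all alternatives the differences of the 17 probe sets in 3 comparisons stayed on their side of the threshold in 964 of 1077 cases (24 of these changed sign without a call on either side), lost the call in 103, gained it in 6 and reversed in 4. The cause of these changes was not tested. The replicate block gave 12, 13 and 7. Same-numbered arrays of different groups correlated at -0.10 to 0.11 in their deviations, and differently numbered ones at -0.15 to 0.12. With 3 arrays a group these values cannot tell whether the numbers pair the samples, and the labels do not say. Low signal limits Cidec, Ucp1 and 2 Car3 probe sets.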
